A study of Homo sapiens with 2 samples.

Results

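The 10 genes described here encode regulators of mitosis: the Polo kinase PLK1, the Aurora kinases AURKA and AURKB, the spindle checkpoint genes BUB1, BUB1B, TTK and MAD2L1, survivin (BIRC5), the phosphatase CDC25C and the transcription factor FOXM1. They were chosen by gene symbol with earlier results of these data known, and 10 of 10 were among the 1947 genes of the deposited table. It lists only genes with a p-value under 0.05 in the authors' Cuffdiff test, 14.2% of the 13714 genes tested. The table came from RNA sequencing of C4-2 cells, an established human prostate cancer line derived from LNCaP, at passage 10 to 15 per the labels. The polyadenylated RNA of 1 culture given vehicle (1 library) was compared with that of 1 culture given ebastine (1 library), an antihistamine that blocks the histamine H1 receptor. The design text of the series speaks of 2 cell types, whereas the labels of both libraries give C4-2, and the labels were followed. No source used here gives the dose or the duration. The title of the series names the histone methyltransferase EZH2 as the target of ebastine, so the comparison addresses which transcripts differ after the drug.

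A dividing cell enters mitosis when CDC25 phosphatases remove inhibitory phosphates from CDK1, a step that PLK1 and AURKA promote. The checkpoint kinases TTK and BUB1, with BUB1B and MAD2L1, hold back the anaphase-promoting complex until every chromosome is attached to the spindle, and AURKB with survivin corrects faulty attachments. FOXM1, acting with the MuvB complex and B-MYB, drives the transcription of many of these genes late in the cell cycle, so their mRNA is highest in G2 and mitosis.

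Promoter sequence is shown first because genes of this class are known to share 2 elements near their start sites: the CCAAT box bound by NF-Y, and the cell cycle genes homology region (CHR) bound by MuvB. RefSeq promoter windows (GRCh38.p14, 250 bases before to 50 after a transcript start) were matched for 6 of the 10 genes: PLK1, AURKB, BUB1, BUB1B, MAD2L1 and CDC25C. Each stretch below runs 5′ to 3′ on the strand of its gene, from 160 bases before to 30 bases after the start. Capitals mark matches to CCAAT (or ATTGG, its reverse complement), to the CHR forms TTTGAA and TTCGAA, and to the forkhead core TGTTTA (or TAAACA, its reverse complement).
PLK1: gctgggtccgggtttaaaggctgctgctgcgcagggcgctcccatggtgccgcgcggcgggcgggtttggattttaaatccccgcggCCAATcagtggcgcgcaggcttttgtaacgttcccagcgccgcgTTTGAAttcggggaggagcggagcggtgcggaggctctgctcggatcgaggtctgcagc
BUB1: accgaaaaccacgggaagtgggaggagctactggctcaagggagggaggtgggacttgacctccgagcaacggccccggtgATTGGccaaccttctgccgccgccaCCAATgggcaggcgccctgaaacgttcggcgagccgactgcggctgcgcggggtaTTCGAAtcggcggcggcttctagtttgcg
BUB1B: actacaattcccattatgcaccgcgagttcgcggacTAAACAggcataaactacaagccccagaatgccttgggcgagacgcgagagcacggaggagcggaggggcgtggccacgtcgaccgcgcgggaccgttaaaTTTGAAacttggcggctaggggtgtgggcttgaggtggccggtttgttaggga
MAD2L1: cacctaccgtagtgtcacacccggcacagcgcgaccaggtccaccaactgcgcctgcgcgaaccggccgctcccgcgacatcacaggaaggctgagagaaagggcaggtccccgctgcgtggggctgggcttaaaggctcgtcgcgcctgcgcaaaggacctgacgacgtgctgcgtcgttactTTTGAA
CDC25C: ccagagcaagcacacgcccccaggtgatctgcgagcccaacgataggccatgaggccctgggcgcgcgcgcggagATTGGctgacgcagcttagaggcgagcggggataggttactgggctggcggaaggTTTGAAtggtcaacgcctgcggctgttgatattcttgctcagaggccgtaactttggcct
AURKB: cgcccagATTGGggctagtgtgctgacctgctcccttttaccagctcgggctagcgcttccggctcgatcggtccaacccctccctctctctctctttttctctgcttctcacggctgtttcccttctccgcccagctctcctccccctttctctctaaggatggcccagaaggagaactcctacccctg

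The stretches lie at chr16:23678729-23678918 (plus strand) for PLK1, chr2:110678034-110678223 (minus) for BUB1, chr15:40160909-40161098 (plus) for BUB1B, chr4:120066819-120067008 (minus) for MAD2L1, chr5:138331775-138331964 (minus) for CDC25C and chr17:8210196-8210385 (minus) for AURKB. A CHR form was present in at least 1 window of 5 of the 6 genes, AURKB being the exception, beside 19.5% of all 27305 genes with a window. By window it was present in 6 of 10, beside 16.4% of all 35116 windows. TTTGAA occurred in 15.2% of all windows and TTCGAA in 1.45%, with both strands searched. TTCGAA reads the same on both strands, and no matches overlapped in the windows of these genes. CCAAT was found in 5 of the 6 genes, all but BUB1B, beside 39.7% of all genes, and in 7 of their 10 windows, beside 34.6% of all windows. Of all windows, 6.38% held CCAAT together with a CHR form.

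The CHR match began at base -29 in PLK1, -23 in BUB1B, -30 in CDC25C, 2 in BUB1 and 25 in MAD2L1, where base 1 is the first transcribed base and -1 the base before it. In PLK1 the CCAAT began 44 bases before the CHR, and in BUB1 and CDC25C the nearest CCAAT began 55 bases before it. The CCAAT of MAD2L1 lay at -229, outside the stretch shown. The AURKB windows held a CCAAT and no CHR form. In the AURKB stretch shown, an ATG follows the start almost at once. Whether these windows cover the main start of AURKB was not checked, so the missing CHR describes these windows only. BUB1B alone held the forkhead core, at -124, which occurred in 12.3% of all windows. CDC25C had 4 windows: 2 hold the same CHR and 2, at an upstream start, hold none of the motifs. A match is a description of letters, and binding was not measured.

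**Figure D1:**
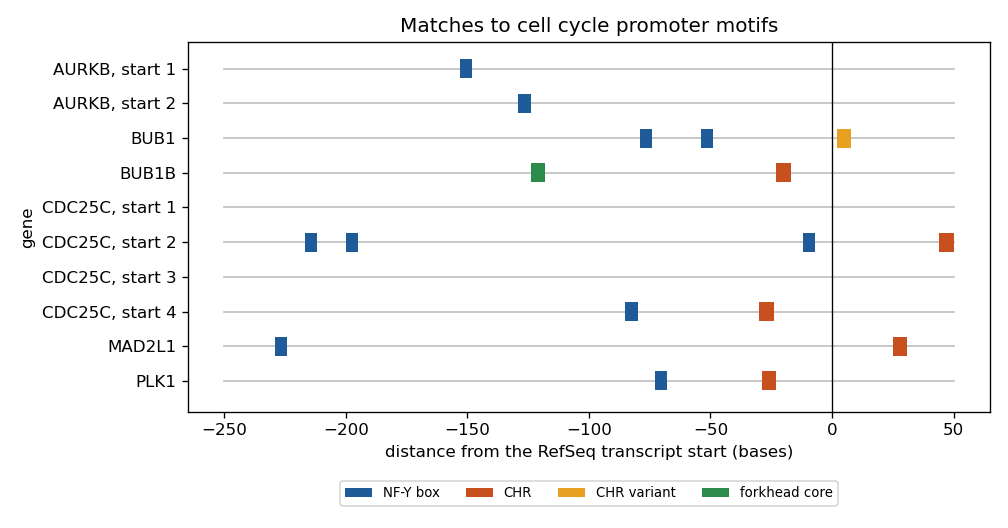
Positions of motif matches in the 10 RefSeq promoter windows of 6 genes; the x axis is the distance in bases from the transcript start, each grey line is 1 window, and coloured blocks are matches on either strand. A CHR form sits within 30 bases of the start in PLK1, BUB1B, BUB1, MAD2L1 and 1 CDC25C window, and the AURKB windows hold the NF-Y box (CCAAT) alone.

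All 10 genes were lower in the ebastine library. The values are FPKM (fragments per kilobase and per 1000000 mapped fragments), which are set to length. Comparing levels between genes assumes that the lengths and reads assigned to each gene were right. The gene models are not given, and several reported spans are wider than the gene. The median of the 10 genes was 38.5 FPKM under vehicle and 17.2 FPKM under ebastine, and their summed level with ebastine was 47.3% of that with vehicle. Ratios below are log2((ebastine FPKM + 1)/(vehicle FPKM + 1)). The added 1 FPKM understates the difference of low genes. For CDC25C, the least abundant of the 10, the log2 ratio was -1.02 with it and -1.18 without it. There were no replicates, so no ratio has an error and no test between treatments was made; each ratio describes these 2 libraries.

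Among the 10 genes the kinases PLK1 and AURKA had the lowest ratios and the kinase AURKB the highest. PLK1 (chromosome 16, 23690201 to 23724821, hg19), which acts from mitotic entry to cytokinesis, had 37.9 FPKM under vehicle and 13.9 FPKM under ebastine. Its log2 ratio of -1.38, a 2.60-fold difference, was the lowest of the 10 and rank 13 from the lowest among the 1768 listed genes averaging at least 1 FPKM. AURKA (chromosome 20, 54944445 to 54967351), the centrosomal Aurora kinase that activates PLK1, had 43.2 FPKM under vehicle and 18.4 FPKM under ebastine, a log2 ratio of -1.19. AURKB (chromosome 17, 8108049 to 8113944), the kinase of the chromosomal passenger complex, had 39.3 FPKM under vehicle and 21.6 FPKM under ebastine. Its log2 ratio of -0.84, a 1.78-fold difference, was the smallest difference among the 10 genes. The Aurora pair therefore changed order: AURKA stood at 1.10 times the AURKB level with vehicle and at 0.852 times with ebastine. That comparison is made within each library and does not depend on how the libraries were scaled, but without replicates it has no error.

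Survivin, the subunit that brings AURKB to the centromere and a member of the inhibitor of apoptosis family, was lower with its partner. BIRC5 (chromosome 17, 76210277 to 76221716) had 51.6 FPKM under vehicle and 23.4 FPKM under ebastine, a log2 ratio of -1.11. The ratio of BIRC5 to AURKB was 1.31 with vehicle and 1.08 with ebastine. The table lists a second gene, EPR-1, a transcript from the BIRC5 locus in the antisense direction, over exactly the same span, with 102 FPKM under vehicle and 52.6 FPKM under ebastine. No source used here gives the strand setting, so reads of BIRC5 and EPR-1 cannot be told apart and both values are uncertain.

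The 4 spindle checkpoint genes lay close together in ratio, from -1.10 to -0.91, although their levels differed. TTK (chromosome 6, 80714322 to 80752244), the kinase that starts checkpoint signalling at unattached kinetochores, had 18.6 FPKM under vehicle and 8.16 FPKM under ebastine, a log2 ratio of -1.10. BUB1 (chromosome 2, 111395409 to 111435684), which marks centromeric chromatin and recruits the other checkpoint proteins, had 23.7 and 10.8 FPKM, a log2 ratio of -1.07. BUB1B (chromosome 15, 40453210 to 40569688) encodes BUBR1, a subunit of the mitotic checkpoint complex. It had 32.5 FPKM under vehicle and 15.9 FPKM under ebastine, a log2 ratio of -0.98. MAD2L1 (chromosome 4, 120980579 to 120988013) encodes MAD2, which binds the anaphase activator CDC20. It had 78.4 FPKM under vehicle and 41.4 FPKM under ebastine, a log2 ratio of -0.91. MAD2L1 was the most abundant of the 10 genes in both libraries.

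CDC25C and FOXM1 were lower by about the median of the 10 genes. CDC25C (chromosome 5, 137620959 to 137685418), the phosphatase that activates CDK1 at mitotic entry, was the least abundant gene, with 10.2 FPKM under vehicle and 4.53 FPKM under ebastine. Its log2 ratio was -1.02, and without the added 1 FPKM the difference was 2.26-fold. FOXM1 (chromosome 12, 2945982 to 3050306) had 39.2 FPKM under vehicle and 19.0 FPKM under ebastine, a log2 ratio of -1.01. The level of the transcription factor was thus 48.4% of its vehicle value, against 36.8% for PLK1 and 54.9% for AURKB.

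**Figure D2:**
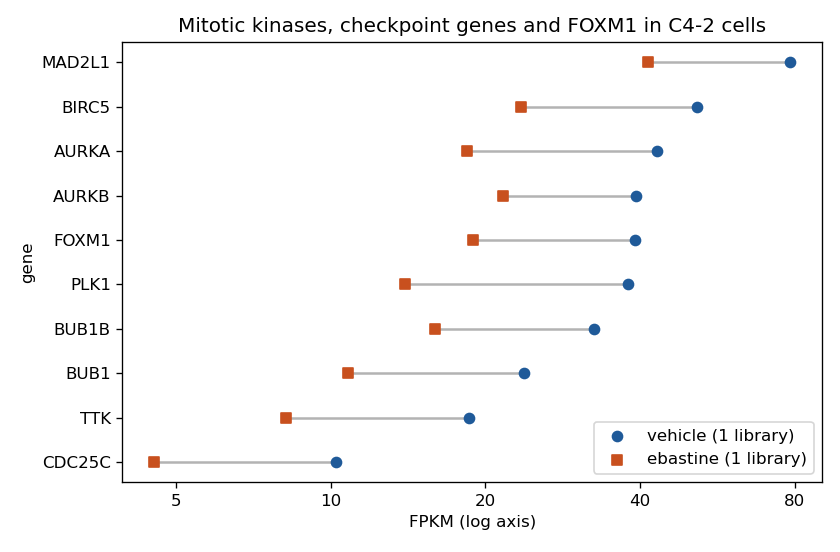
FPKM of the 10 genes (log x axis) in the vehicle library (blue circles) and the ebastine library (orange squares), 1 library each, ordered by the vehicle level with MAD2L1 at the top. Every square lies left of its circle, from CDC25C at 10.2 and 4.53 FPKM to MAD2L1 at 78.4 and 41.4 FPKM.

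The order of levels changed little. With vehicle it ran MAD2L1, BIRC5, AURKA, AURKB, FOXM1, PLK1, BUB1B, BUB1, TTK and CDC25C. With ebastine AURKA moved from place 3 to place 5, behind AURKB and FOXM1, and PLK1 from place 6 to place 7, behind BUB1B. With 1 library per group it cannot be said which neighbours differ: AURKB at 39.3, FOXM1 at 39.2 and PLK1 at 37.9 FPKM with vehicle were within a few percent of each other. The ratio of the highest to the lowest of the 10 was 7.67 with vehicle and 9.13 with ebastine.

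Set against the whole table, the 10 genes were among the lower ratios. The table is already a selection: it holds the genes for which the authors' test gave a p-value under 0.05, 14.2% of the 13714 genes tested. The 10 genes, all in it, were chosen with earlier results of these data known. Their presence and the counts in this paragraph are therefore a description and not a test. At least 2-fold lower were 7 of the 10 genes, beside 4.86% of the 1768 listed genes averaging at least 1 FPKM. AURKB, MAD2L1 and BUB1B were the genes short of 2-fold, although BUB1B was 2.04-fold lower without the added 1 FPKM. At least 1.5-fold lower were 10 of 10, beside 18.6%, and 57.0% of the 1768 genes were lower by any amount. The median log2 ratio was -1.04 for the 10 genes and -0.32 for the 1768. A q-value of 0.00178 is given for 9 of the 10 in the authors' deposited table, and 0.190 for CDC25C. The value 0.00178 belongs to the smallest p-value listed, which 385 of all 1947 genes share, so it does not rank these 9. Lower with a q-value under 0.05 were 25.4% of all 1947 genes. That test rests on 1 library per group and compares these libraries, not the conditions.

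**Figure D3:**
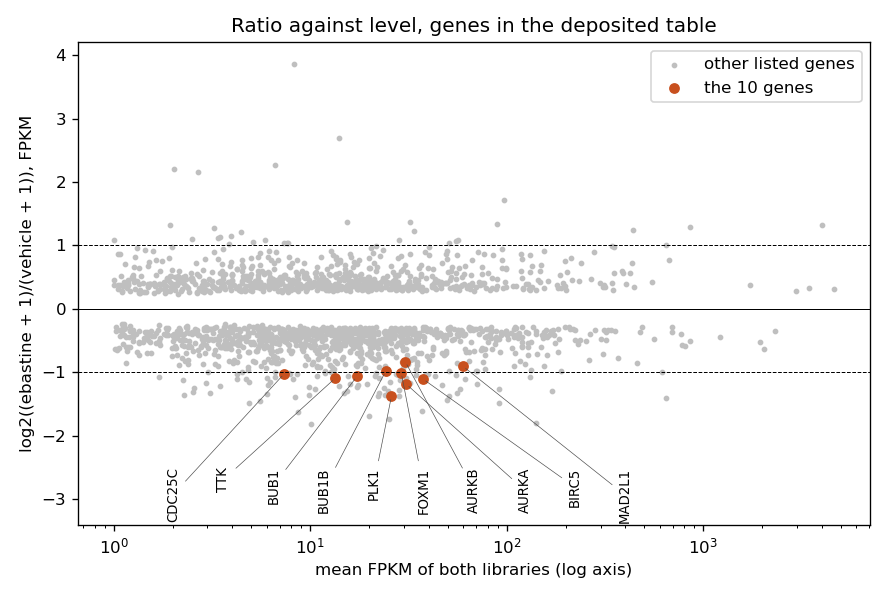
log2 ratio of ebastine over vehicle (y axis, 1 FPKM added) against the mean FPKM of both libraries (log x axis) for 1768 listed genes (grey) and the 10 genes (orange, labelled); dashed lines mark 2-fold. The 10 genes lie between -1.38 and -0.84, and the empty band around 0 comes from the p-value limit of the table.

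The scaling of the libraries moved these counts. Multiplying the ebastine values by 1.27, which centres the ratios of the listed genes averaging at least 10 FPKM on 0, left 1 of the 10 genes, PLK1, at least 2-fold lower, with a median log2 ratio of -0.74. Upper quartile rescaling also left PLK1 alone at 2-fold, and an added 5 FPKM in place of 1 left PLK1 and AURKA. Over all 1768 genes that centring changed the split from 86 lower and 32 higher to 24 lower and 121 higher at 2-fold. All 10 genes were still lower after centring, upper quartile rescaling and rescaling to equal sums. Each of these rescalings was computed from listed genes alone, which are selected by p-value, and not from all genes tested. The distance between PLK1 and AURKB, 0.55 on the log2 scale, stays about the same under any scaling of a whole library. Since bulk RNA was measured, fewer cells in G2 and mitosis and less of each mRNA per cell cannot be told apart.

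**Figure D4:**
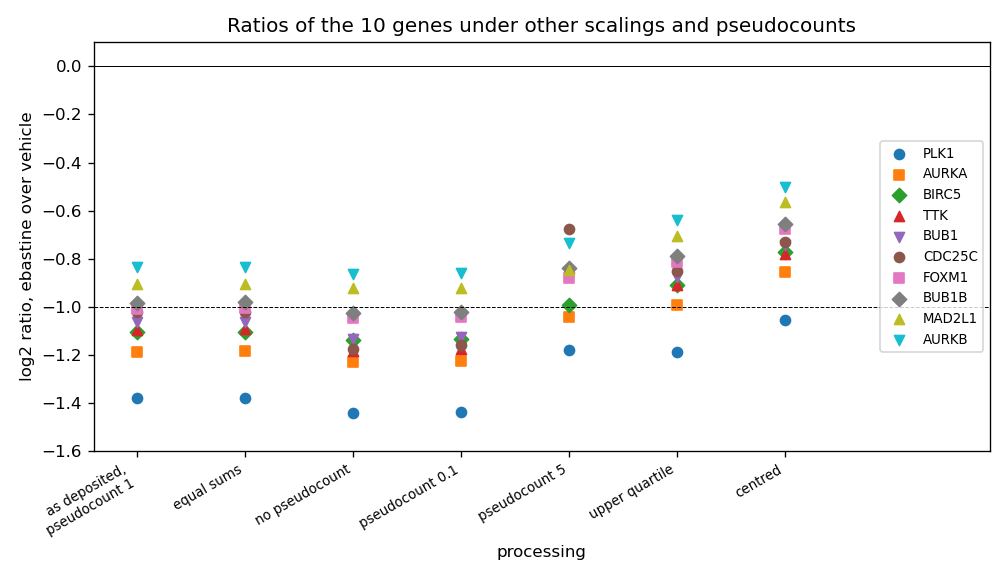
log2 ratio of ebastine over vehicle (y axis) for each of the 10 genes under the processing named on the x axis, 1 point per gene; the dashed line marks 2-fold lower. All points lie below 0, with PLK1 lowest throughout, and after centring PLK1 is the gene left below the dashed line.

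Genes around the 10 were taken from lists by role, and no listed gene of the mitotic lists averaging at least 1 FPKM was higher with ebastine in the values as deposited. The counts of this list and those below stand beside a table that holds 14.2% of all genes tested. Of its 1768 genes averaging at least 1 FPKM, 57.0% were lower and 4.86% at least 2-fold lower. Of 12 genes of the chromosomal passenger complex and partners of the Aurora kinases, 9 were in the table, of which 8 averaged at least 1 FPKM. All 8 were lower, 2 of them by at least 2-fold, and their median log2 ratio was -0.62. The cohesin protector SGOL2 had 15.0 FPKM under vehicle and 6.67 FPKM under ebastine, and TPX2, the activator of AURKA, had 46.8 and 22.1 FPKM. The passenger complex subunits CDCA8 (borealin) and INCENP were 1.91-fold and 1.55-fold lower. INCENP stood at 0.425 times the AURKB level with vehicle and 0.483 times with ebastine. The germ cell Aurora kinase AURKC was listed below 1 FPKM in both libraries.

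Of 18 other mitotic kinases, 9 were listed, beside 14.2% of all genes tested. All 9 were lower, beside 57.0% of the 1768 listed genes averaging at least 1 FPKM, with a median log2 ratio of -0.77. PLK2 had a ratio of -0.32 and changed direction after centring. NEK2, a centrosomal kinase, had 34.0 FPKM under vehicle and 13.7 FPKM under ebastine, and PBK had 84.4 and 38.7 FPKM. CDK1, the central kinase of mitosis, had 203 and 108 FPKM, a 1.86-fold difference. PLK4, which controls centriole duplication, was 1.80-fold lower. Within the Polo family, PLK1 stood at 1.88 times the level of PLK2 with vehicle and at 0.878 times with ebastine, so that their order changed; the q-value of PLK2 was 0.235 in the authors' deposited table. PLK2 was named for this comparison after its values were seen, as were CDC25B, WEE1, BUB3, CKS2, ARPP19, SKP2, MCM4 and MCM5 below and AURKC above.

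Of 18 genes of the CDK1 switch, 13 were listed, beside 14.2% of all genes tested. All 13 were lower as deposited, beside 57.0% of the 1768 listed genes averaging at least 1 FPKM, with a median log2 ratio of -0.66. After centring 11 were lower and CKS2 and ARPP19 were not. The B-type cyclins that activate CDK1 were lower by more than CDK1 itself, CCNB2 by 2.59-fold and CCNB1 by 2.40-fold. The cyclin CCNA2 was 2.18-fold lower and the CDK subunit CKS1B 1.86-fold lower. CDC25B, the phosphatase related to CDC25C, had 14.1 FPKM under vehicle and 7.73 FPKM under ebastine. The opposing kinase WEE1, which adds the phosphates that CDC25C removes, had 18.1 and 12.7 FPKM. WEE1 thus stood at 1.77 times the CDC25C level with vehicle and at 2.81 times with ebastine. In the authors' deposited table the q-value was 0.190 for CDC25C and 0.0278 for WEE1.

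Of 20 further genes of the spindle checkpoint and its silencing, 14 were listed, beside 14.2% of all genes tested. All 14 were lower as deposited, beside 57.0% of the 1768 listed genes averaging at least 1 FPKM, with a median log2 ratio of -0.89. All 14 were also lower after centring. CDC20, the anaphase activator that the checkpoint holds, had 80.3 FPKM under vehicle and 31.6 FPKM under ebastine. The outer kinetochore genes NDC80 and NUF2, which bind spindle microtubules, were 2.42-fold and 2.22-fold lower. CASC5 (KNL1), the scaffold that recruits BUB1 and BUB1B, was 2.10-fold lower. BUB3, the partner of both BUB proteins, had 93.5 and 71.0 FPKM, with a q-value of 0.145 in the authors' deposited table. Relative to BUB1B its level was 2.88 with vehicle and 4.46 with ebastine, while MAD2L1 relative to BUB1B was 2.41 and 2.60. CDC20 relative to MAD2L1 was 1.02 with vehicle and 0.763 with ebastine.

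FOXM1 acts with B-MYB and the MuvB complex. Of 13 genes of that group 3 were in the table, which holds 14.2% of all genes tested: B-MYB (MYBL2) with 97.3 FPKM under vehicle and 54.3 FPKM under ebastine, the MuvB subunit LIN9 with 8.10 and 5.26 FPKM, and MYBL1 with 3.43 and 2.27 FPKM. MYBL2 stood at 2.48 times the FOXM1 level with vehicle and 2.86 times with ebastine. Of 15 textbook target genes of FOXM1, 13 were listed. At least 2-fold lower were 10 of these, beside 4.86% of the 1768 listed genes averaging at least 1 FPKM. All 13 genes of the target list were lower, also after centring, with a median log2 ratio of -1.21. That list shares CDC20, CCNB1, CCNB2, CCNA2 and other genes with the lists above. Among its lowest ratios were those of the spindle motor KIF20A (35.1 and 13.1 FPKM) and the centromeric histone CENPA (22.2 and 8.47 FPKM). SKP2, a ubiquitin ligase subunit, showed its smallest difference, at 25.9 and 17.3 FPKM. None of 7 other members of the inhibitor of apoptosis family of BIRC5 was in the table, so no value of theirs was used.

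The 10 genes were close in ratio to spindle motors and farther from replication genes, as a description without a test. Of all genes tested 14.2% were listed, and of the 1768 averaging at least 1 FPKM 57.0% were lower and 4.86% at least 2-fold lower. Of 22 spindle motors and microtubule binders 21 were listed, all lower, with 12 at least 2-fold lower and a median log2 ratio of -1.01. CENPE, HMMR, DLGAP5 and KIF20A were lowest, from -1.68 to -1.36. For CENPE, the lowest, the authors' deposited table has a q-value of 0.306. Of 23 origin licensing and CMG helicase genes 16 were listed, all lower as deposited, with 0 at least 2-fold lower and a median of -0.45. Their lowest ratio, -0.69 for the kinase CDC7, was above that of AURKB, the highest of the 10 genes, and DBF4, CDC45 and MCM7 followed at -0.66, -0.64 and -0.59. After centring, 14 of the 16 licensing genes were lower, MCM4 and MCM5 being the exceptions. The genes closest to the median ratio of the 10, within 0.012 on the log2 scale among listed genes averaging at least 5 FPKM, were PRC1, TPX2, ANLN, CENPW and SGOL2, at -1.05, -1.05, -1.04, -1.05 and -1.06. This likeness rests on 2 libraries.

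**Figure D5:**
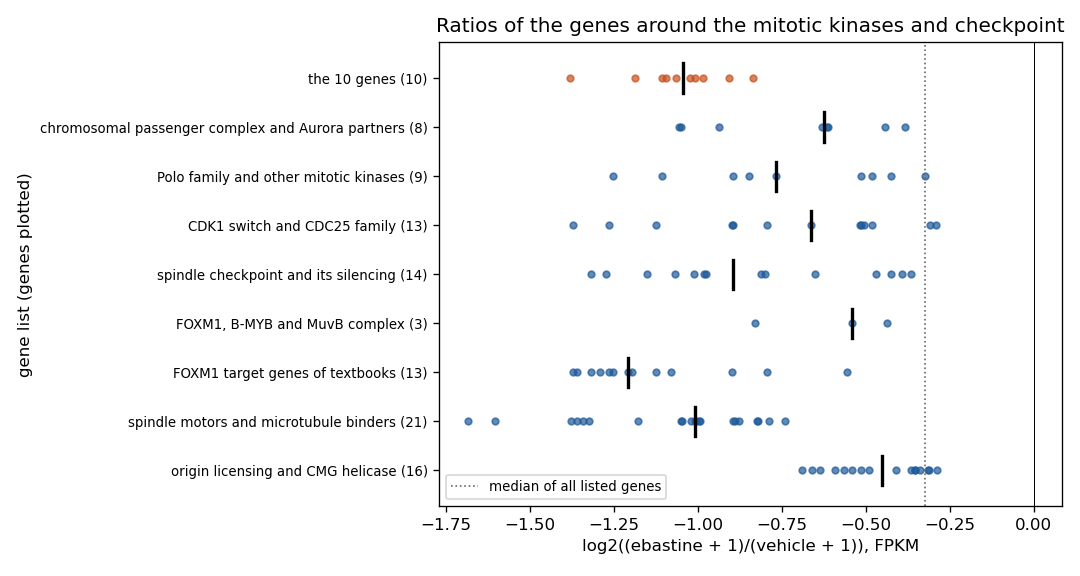
log2 ratio of ebastine over vehicle (x axis, 1 FPKM added) for listed genes averaging at least 1 FPKM, 1 point per gene, by list (number plotted in brackets; lists share some genes); black bars are medians and the dotted line is the median of all 1768 listed genes, -0.32. The 10 genes have a median of -1.04, the FOXM1 target list -1.21 and the origin licensing list -0.45.

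Several reported spans are wider than the gene. The span of FOXM1 was 104 kb against 19.5 kb for the gene in RefSeq (GRCh38.p14), where RHNO1 and ITFG2 are its neighbours, and that of PLK1 was 34.6 kb against 11.5 kb, next to ERN2. The span of BUB1B was 116 kb against 60.1 kb, and RefSeq holds a read-through gene, BUB1B-PAK6. No source used here says how reads of overlapping genes were divided. RefSeq names pseudogenes of AURKA, AURKB, BUB1 and MAD2L1, with which reads can be shared. Of 9 luminal prostate markers 4 were in the table, and they went both ways. KLK3, KLK2 and TMPRSS2 stood at 2476, 465 and 362 FPKM under vehicle with log2 ratios of -0.63, -0.77 and -0.33, and FOLH1 stood at 495 FPKM with a log2 ratio of 0.76. After centring TMPRSS2 lay on the other side of 0. Markers of basal, stromal and blood cells numbered 0 of 16 in the table, which says only that no difference was listed for them.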

How the data were processed

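Polyadenylated RNA of 1 vehicle and 1 ebastine culture of C4-2 cells was sequenced. Per the submitters' processing notes, TopHat2, Cuffdiff and hg19 were used; versions are not listed. The deposited table holds the FPKM that the authors' Cuffdiff estimated and scaled, with the authors' log2 fold change, test statistic (a score, not used), p-value and q-value, per the file headers. No source used here gives the gene models, strand setting or scaling method. All 1947 listed genes had a p-value under 0.05; the q-values match an adjustment over 13714 genes. Genes outside the table were not used, so medians describe listed genes and overstate whole lists. Sequencing depth is unknown, and no counting interval can be given.

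Ratios were computed with Python 3.11.15 and pandas 2.3.3, with a pseudocount of 1 FPKM, and counts used a minimum mean of 1 FPKM. Locus starts count from 0 in the file and are given from 1: lengths then equalled the RefSeq length for 79 of 1725 genes, against 28 otherwise. Promoters came from RefSeq (GRCh38.p14) and were not mixed with hg19 positions. The scripts were tested on simulated data. The 10 genes, the lists and the naming rule were chosen with earlier results of these data known. Named are the 10 genes, up to 4 genes per list with the largest ratio in the direction of its median, up to 2 against it, and the 5 genes nearest to the median of the 10; others are marked.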

Additional observations from a re-analysis of the deposited data

How the results depend on the processing

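Each of the 10 genes was lower with ebastine under all 6 alternative pseudocounts and scalings. The median log2 ratio of the 10 genes, -1.04, became -1.13 with a pseudocount of 0.1 FPKM, -0.85 with 5 FPKM, -1.14 with none, -0.74 after centring on the median ratio of listed genes and -0.86 after upper quartile rescaling. The 7 genes at least 2-fold lower became 2 with a pseudocount of 5 FPKM, 1 after centring and 1 after upper quartile rescaling, and rose to 8 with a pseudocount of 0.1 FPKM or none. Over all 1768 genes, those at least 2-fold lower fell from 86 to 30, 24 and 45 under these 3 settings, so fewer genes pass 2-fold in general. At 1.5-fold the count was 10 under 5 of the 6 pseudocount and scaling alternatives and 8 after centring. With q under 0.01 in the authors' deposited table in place of 0.05, 9 genes were again counted. Those 9 share the smallest q-value listed, so this limit could not change the count. A minimum mean of 5 FPKM left 5 of the 8 genes of the passenger complex and Aurora list, all lower, because fewer genes passed the minimum. The median log2 ratio of that list, -0.62, became -0.94 with this minimum and -0.86 with no pseudocount. All centring and rescaling used the filtered table. No paired analysis was possible because each group had 1 library. For the same reason no library could be left out, and depth limits are unknown.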

Other observations

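The CHR was counted in other genes of the table, as a description without a test. Leaving out the 10 genes, 79 listed genes averaging at least 1 FPKM were at least 2-fold lower with ebastine, and 62 of them had a RefSeq promoter window. TTTGAA or TTCGAA was present in 31 of these 62 genes, in 160 of 683 genes lower by under 2-fold (23.4%) and in 77 of 534 genes that were higher (14.4%). Over all 27305 genes with a window the share was 19.5%. CCAAT was present in 71.0%, 51.7% and 44.8% of the 3 groups, and in 39.7% of all genes. The forkhead core TGTTTA was present in 6.45%, 12.3% and 11.0% of the groups and in 14.7% of all genes. Genes differ in their number of windows, which was not accounted for.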
